A study of Homo sapiens with 8 samples.

Results

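The response of control NB4 cells to all-trans retinoic acid (ATRA) was measured by RNA-seq in 4 of the 8 libraries of the series, 2 without ATRA (scramble) and 2 with ATRA (scramble+ATRA). NB4 is a human acute promyelocytic leukemia line whose cells carry the PML/RARα fusion. All 4 libraries came from cells with a stably integrated control shRNA construct, described as an empty vector in the sample labels and as a scrambled sequence in the study's methods, on a plasmid with puromycin resistance, and the other 4 libraries carried an shRNA against KDM3B. The labels give 1 µM ATRA, whereas the study's methods give its concentration in millimolar units. The labels name both 24 and 48 hours without saying which applied to a library, and the labels call the scramble cells undifferentiated and the scramble+ATRA cells differentiated. Both groups are 1 cell line. The study's methods speak of replicate experiments, and whether the 2 libraries of a group came from separate cultures is not given in the sources used here, so the p-values below measure only the spread between these libraries, which may be technical. The comparison covered 36369 gene names that were listed for all 4 libraries, after 1157 clone-accession names were left out of 37526, and 12338 of them had enough counts to be tested.

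ATRA is the ligand of the retinoic acid receptors, which bind DNA as heterodimers with retinoid X receptors and switch their target genes between repression and activation. In acute promyelocytic leukemia the PML/RARα fusion holds cells at the promyelocyte stage, and pharmacological ATRA releases this block, after which the cells acquire features of the granulocyte lineage. Granulocytes fill their granules in a fixed order, with azurophil granules in promyelocytes and specific and gelatinase granules later, and then acquire the NADPH oxidase, chemoattractant receptors and adhesion molecules with which they reach and kill microbes.

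Between 11623305 and 23658880 reads were counted on genes per library, and levels are given as TMM-scaled CPM, a count divided by the scaled library size, in the order of library 1 and library 2 of each group. CPM is not divided by gene length, so levels were compared between libraries and not between genes. The second scramble+ATRA library stood apart, because 50.0% of its uniquely aligned reads lay outside genes against 8.83% to 9.36% in the other 3, and both ATRA libraries of the KDM3B-silenced cells were like it at 51.0% and 51.4%. Changes without either scramble+ATRA library are given where the call of a named gene changed, or where the median or count of a list moved by over 1.5 times. Both of these fits called more genes over all genes tested than the main fit. A list count from them therefore cannot be set against the shares of the main fit and is not a result about the list. List counts without comment moved by 1 gene at most or by no more than 1.5 times. The files of the untreated libraries listed 56470 gene names and those of the ATRA libraries 56609, so the gene sets used for counting and the treatment cannot be told apart. Spearman's correlation over the genes tested was 0.988 between the scramble libraries, 0.960 between the scramble+ATRA libraries and 0.896 to 0.937 between groups. Reads of the fusion transcript cannot be told apart from those of PML and RARA in these counts. In bulk RNA, a change in the share of cells of one kind cannot be told apart from a change in RNA per cell.

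A gene was called when its edgeR quasi-likelihood test, with Benjamini-Hochberg adjustment across the genes tested, gave a p under 0.05 and its fold change was at least 1.5. By this rule 12.5% of the genes tested were called, 946 of them (7.67%) higher and 597 (4.84%) lower with ATRA, and 473 and 302 of these changed at least 4-fold. The thresholds of the study's methods, an unadjusted P under 0.05 with the same fold limit, called 25.6% when applied to the edgeR test, whereas those methods used DESeq2. With DESeq2 they called 1751 genes higher and 1271 lower. At an adjusted p under 0.05 with the same fold limit, DESeq2 called 1265 higher and 843 lower of the 12338 genes. The list counts by DESeq2 below use this adjusted threshold. The 2 groups did not overlap in 56.9% of the genes tested, called or not. The median log2 fold change over all genes tested was 0.02. Errors after ± are standard errors of the log2 fold change from 2 libraries a group, and counting intervals cover counting error only. No list median below changed when genes near 0 counts in 1 group were set to a lower bound, or to their ratio of counts where that group had counts. A median moves only where a gene crosses it, so this check says little about these genes. In the plot of both scramble+ATRA libraries, all 1543 called genes lie on the same side of the untreated mean in both libraries. Of all 12338 genes tested, 4520 lay below and 4517 above that mean in both. The calls were made from these same libraries, so their shared direction is not separate evidence. Without the second scramble+ATRA library 908 of the 934 higher genes that could be tested, and 590 of 597 lower ones, were called again. When either scramble library was left out, 0 genes passed the adjusted threshold in edgeR. At an unadjusted p under 0.05, 894 were higher and 669 lower without the first and 911 and 527 without the second, and all called genes that could be tested kept their direction and at least 1.5-fold change. A permutation test of 2 against 2 libraries cannot give a p below 0.333.

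The genes of retinoid signalling and metabolism were read first. Of 27 listed members 18 were tested, 5 were called higher and 1 lower, and the median log2 fold change was 0.61. DHRS3, a retinaldehyde reductase that returns retinal to retinol, was at 2.38 and 2.11 CPM without and 144 and 167 CPM with ATRA (log2 fold change 6.11 ± 0.27, edgeR adjusted p = 0.000106). CYP26A1, which oxidises retinoic acid for clearance, was at 0.0992 and 0.331 CPM without and 9.99 and 8.84 CPM with ATRA (log2 fold change 5.37 ± 0.58, edgeR adjusted p = 0.00166). CYP26B1, a second enzyme of this kind, was at 0 and 0.248 CPM in the scramble libraries and 9.69 and 8.55 CPM in the scramble+ATRA libraries (log2 fold change 6.04 ± 0.84, edgeR adjusted p = 0.00442). It had 0 and 6 counts without ATRA, and its log2 fold change ran from 5.14 without the first scramble library to 10.16 without the second. In these 3 genes the groups were far apart, with both scramble libraries below 3 CPM.

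DHRS9, a short-chain dehydrogenase that acts on retinol, rose 8.54-fold from 23.2 and 33.3 CPM to 199 and 284 CPM (edgeR adjusted p = 0.000989). RARB, the retinoic acid receptor β gene, had 1 and 0 counts without ATRA and 46 and 57 with ATRA, a ratio of 169.6-fold (95% exact counting interval 29.8 to 6762), and the call passed (edgeR adjusted p = 0.00295). RXRA, the main heterodimer partner of the receptors, fell from 123 and 174 CPM to 58.1 and 51.6 CPM (log2 fold change -1.44 ± 0.24, edgeR adjusted p = 0.00928). The receptor that forms the fusion, RARA, was not called at 47.9 and 45.9 CPM without and 72.2 and 51.3 CPM with ATRA (log2 fold change 0.40 ± 0.24), and the libraries of the groups did not overlap. PML, the other partner of the fusion, was not called either at 74.7 and 97.3 CPM without and 143 and 135 CPM with ATRA (log2 fold change 0.69 ± 0.22, edgeR adjusted p = 0.0889), although it was called without either scramble+ATRA library, at 0.64 and 0.72. Thus the members that passed with a rise were a receptor and 4 enzymes that act on retinoids.

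The promoters of RARB and DHRS3 are shown as members of the retinoid list that rose, and that of ALOX5AP as 1 of the 10 largest rises over the genes tested, each with the letters AGGTCA, the core motif of nuclear receptor sites, or their reverse complement TGACCT, in capitals. Each sequence is the 250 bases before a start site in RefSeq on GRCh38.p14, read 5′ to 3′ on the strand of the gene.
RARB (chr3:25340552-25340801, plus strand): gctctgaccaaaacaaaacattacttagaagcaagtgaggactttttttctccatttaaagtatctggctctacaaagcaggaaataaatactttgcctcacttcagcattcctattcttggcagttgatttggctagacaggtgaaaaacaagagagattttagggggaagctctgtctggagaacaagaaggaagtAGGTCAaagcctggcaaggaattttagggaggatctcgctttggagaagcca
DHRS3 (chr1:12596614-12596863, minus strand): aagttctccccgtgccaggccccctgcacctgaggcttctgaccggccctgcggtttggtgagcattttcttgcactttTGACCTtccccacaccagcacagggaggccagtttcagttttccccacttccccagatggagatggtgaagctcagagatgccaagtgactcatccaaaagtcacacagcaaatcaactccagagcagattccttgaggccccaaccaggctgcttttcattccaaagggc
ALOX5AP (chr13:30713235-30713484, plus strand): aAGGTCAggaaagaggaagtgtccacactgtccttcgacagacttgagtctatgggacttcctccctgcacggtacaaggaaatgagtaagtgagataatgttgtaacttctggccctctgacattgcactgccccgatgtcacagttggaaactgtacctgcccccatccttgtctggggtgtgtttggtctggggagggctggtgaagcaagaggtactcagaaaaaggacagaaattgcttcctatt
Each window held 1 copy of the motif. RefSeq windows were matched for 23 of the 27 retinoid genes, and the motif was found on either strand in 6 of them (26.1%), compared with 3979 of 27305 genes (14.6%) over all promoters, 12.2% of the genes tested and 97 of 694 genes called higher (14%). Counted by window, as several genes have more than 1, the shares were 7 of 44 (15.9%) for the retinoid list and 4242 of 35116 (12.1%) over all promoters. Of the 6 retinoid genes RARB and DHRS3 were called higher, STRA6 and RARA were not called, and RXRG and RDH13 had 0 counts in all 4 libraries. Among the 10 largest rises 6 genes had a window and 1 of these, ALOX5AP, held the letters. Direct repeats of AGGTCA with 1, 2 or 5 bases between were found in 0 windows of the retinoid list and in 6, 1 and 1 of 35116 windows over all genes. Only exact copies of these letters were searched, and their repeats were rare in all windows. The 0 of the retinoid list therefore does not show that response elements are absent. The windows of RARB and DHRS3 lie within the span of these genes in GENCODE, which has other starts upstream. These matches describe letters in a window of 250 bases and were not tested for binding.

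**Figure D1:**
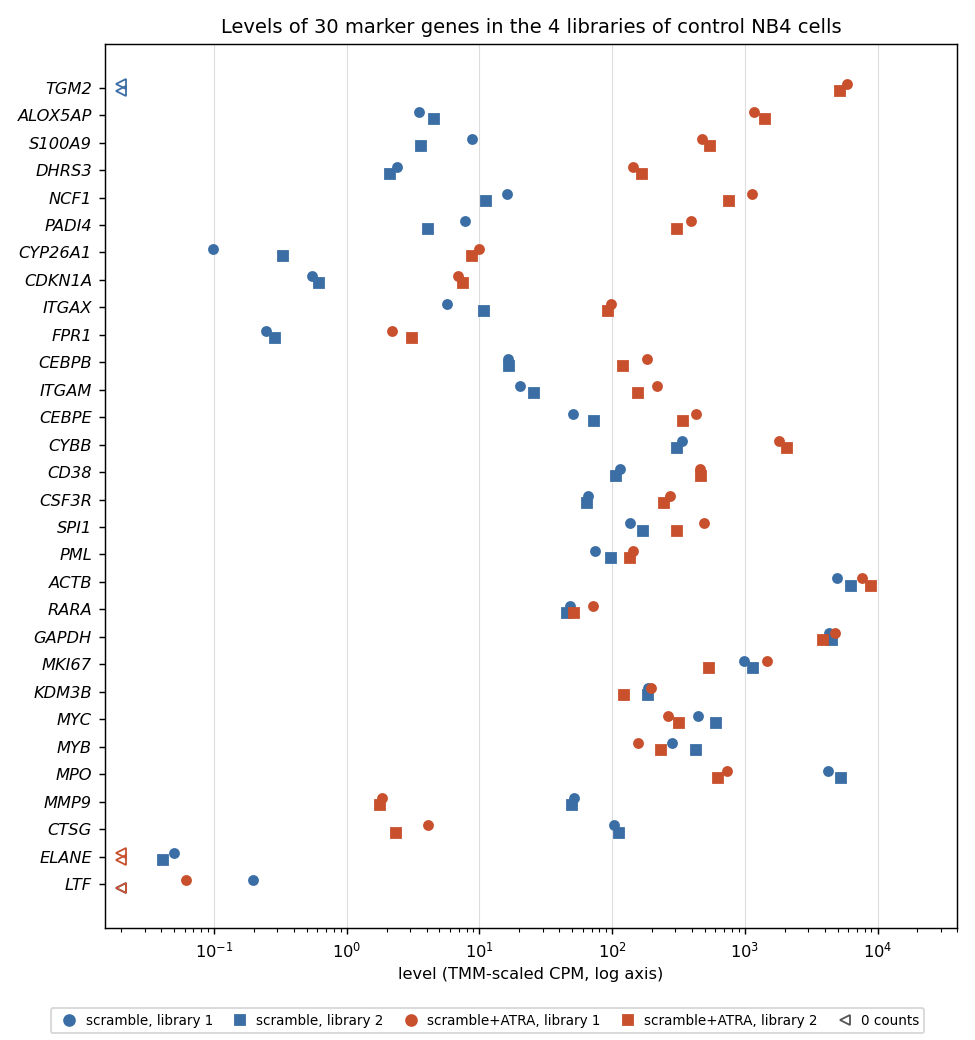
Level of 30 marker genes in each of the 4 libraries, as TMM-scaled CPM on a log axis, ordered by log2 fold change (blue scramble, orange scramble+ATRA, circles library 1, squares library 2, open triangles 0 counts). TGM2 has 0 counts in both scramble libraries and 5838 and 5241 CPM with ATRA, GAPDH overlaps between the groups, and MPO, MMP9 and CTSG lie lower with ATRA.

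TGM2, tissue transglutaminase, an enzyme that cross-links proteins and is a known ATRA target in NB4 cells, lies at chr20:38127385-38166578 on hg38 and had 0 and 0 counts in the scramble libraries and 95225 and 55759 in the scramble+ATRA libraries, or 5838 and 5241 CPM. Set against a floor of 3 counts per library, it was at least 40629-fold higher with ATRA (edgeR adjusted p = 7.34e-05). TGM3, the epidermal transglutaminase, was at 3.27 and 1.40 CPM without and 74.3 and 69.7 CPM with ATRA (log2 fold change 4.96 ± 0.41, edgeR adjusted p = 0.000591). TGM5 rose 3.55-fold from 25.1 and 13.2 CPM to 59.4 and 76.4 CPM (edgeR adjusted p = 0.0138). TGM1 was not called, at a log2 fold change of -0.25 ± 0.57 that became -1.45 and a call without scramble+ATRA library 1, and the other 5 of 9 family members were not tested.

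The azurophil granule list held calls in both directions, with 7 genes higher, 7 lower and 8 not called among 22 tested of 24, and a median log2 fold change of 0.11 (-0.05 without scramble+ATRA library 2 to 0.45 without scramble+ATRA library 1). MPO, myeloperoxidase, which makes hypochlorous acid from the oxidase product, fell 6.99-fold from 4231 and 5261 CPM to 729.9 and 628 CPM (log2 fold change -2.81 ± 0.21, edgeR adjusted p = 0.000394). CTSG, the serine protease cathepsin G, fell 32.8-fold from 103 and 113 CPM to 4.11 and 2.35 CPM (log2 fold change -5.04 ± 0.33, edgeR adjusted p = 0.000241). It was among the 10 largest falls of called genes with more than 3 counts in each library. EPX, eosinophil peroxidase, was at 143 and 277 CPM without and 13.8 and 12.9 CPM with ATRA (log2 fold change -3.98 ± 0.36, edgeR adjusted p = 0.000839). The remaining falls were RNASE3 at -2.85, PRG2 at -1.91, LYZ at -1.58 and RNASE2 at -1.44 on the log2 scale, the first a ribonuclease of eosinophil granules, the next a basic granule protein, then lysozyme and the eosinophil-derived neurotoxin. Of the 7 falls, EPX, PRG2, RNASE2 and RNASE3 are known as proteins of eosinophil granules, and EPX and PRG2 also stand in the list of eosinophil and basophil markers, which leaves MPO, CTSG and LYZ.

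Rises in the same list included several antimicrobial proteins. BPI, the bactericidal/permeability-increasing protein, which binds lipopolysaccharide, was at 0.198 and 0.207 CPM without and 57.6 and 57.0 CPM with ATRA (log2 fold change 8.09 ± 0.32, edgeR adjusted p = 7.87e-05), a 273-fold change. DEFA4, an α-defensin, was at 4.91 and 3.10 CPM without and 148 and 373 CPM with ATRA (log2 fold change 6.03 ± 0.54, edgeR adjusted p = 0.000801). DEFA3 was at 1.29 and 1.12 CPM without and 92.2 and 264 CPM with ATRA (log2 fold change 7.20 ± 0.60, edgeR adjusted p = 0.00059), so that the 2 scramble+ATRA libraries differed over 2-fold in both while both lay far above the scramble libraries. DEFA1 and DEFA3 are near-identical copies, and the split of reads between them is uncertain. CTSD, the aspartic protease cathepsin D, rose 13.2-fold to 407 and 566 CPM (edgeR adjusted p = 0.000306). SERPINB1, an inhibitor of neutrophil serine proteases, rose 9.67-fold (edgeR adjusted p = 0.000748). STXBP2, which acts in granule release, rose 1.84-fold (edgeR adjusted p = 0.0336). Exons of CTSD and LYZ are overlapped by exons on the opposite strand over 23.4% and 34.7% of their length, and no source used here says whether counting used strand. ELANE, neutrophil elastase, was not tested because it had 1 and 1 counts without ATRA and 0 and 0 with ATRA, and AZU1, azurocidin, was not tested at 1 and 10 and 2 and 2 counts.

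In the specific and gelatinase granule list, 8 genes were higher and 2 lower among 15 tested of 23, with a median log2 fold change of 1.91 (1.19 without scramble+ATRA library 2 to 2.04 without scramble library 1). CRISP3, a matrix protein of specific granules, had 0 and 0 counts without ATRA and 160 and 158 with ATRA, at least 90.4-fold higher (edgeR adjusted p = 0.000787). MMP8, neutrophil collagenase, was at 0.149 and 0.165 CPM without and 31.8 and 49.6 CPM with ATRA (log2 fold change 7.95 ± 0.44, edgeR adjusted p = 0.000127). ORM1 and ORM2, which encode the acute-phase protein orosomucoid and share much of their sequence, had log2 fold changes of 5.01 ± 0.45 and 4.81 ± 0.71. These genes started near the floor, and their levels with ATRA stayed below 50 CPM.

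CAMP, the cathelicidin precursor, was at 0.248 and 0.165 CPM without and 1.90 and 1.97 CPM with ATRA (log2 fold change 3.20 ± 0.59, edgeR adjusted p = 0.0133). MMP25, a membrane-bound protease of neutrophils, rose 4.51-fold (edgeR adjusted p = 0.0112). CYSTM1, a small membrane protein, rose 3.75-fold (edgeR adjusted p = 0.0476), but without scramble+ATRA library 2 its log2 fold change fell from 1.91 to 0.91 and it was not called. ARG1, arginase 1, was at least 5.34-fold higher from 0 and 0 to 13 and 7 counts (edgeR adjusted p = 0.0261). MMP9, gelatinase B, the enzyme for which the gelatinase granule is named, moved the other way, from 51.6 and 49.9 CPM to 1.84 and 1.79 CPM (log2 fold change -4.80 ± 0.26, edgeR adjusted p = 0.000127). CHI3L1, a chitinase-like glycoprotein, fell from 123 and 67.3 CPM to 24.5 and 16.3 CPM (log2 fold change -2.22 ± 0.36, edgeR adjusted p = 0.00788). LTF, lactoferrin, the defining protein of specific granules, was at 4 and 0 counts without ATRA and 1 and 0 with ATRA and was not tested. LCN2, CEACAM8, OLFM4 and CD177 were not tested either, so the list holds no call for several proteins of mature neutrophils.

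The phagocyte NADPH oxidase, which makes superoxide, showed 5 genes higher and 0 lower among 8 tested of 12, with a median log2 fold change of 1.32. CYBB, the catalytic gp91phox subunit, was at 334 and 310.4 CPM without and 1812 and 2062 CPM with ATRA (log2 fold change 2.59 ± 0.20, edgeR adjusted p = 0.000448). Its membrane partner CYBA was at 189 and 169 CPM without and 457 and 342 CPM with ATRA (log2 fold change 1.16 ± 0.23, edgeR adjusted p = 0.0177). NCF1, the cytosolic organiser p47phox, was at 16.2 and 11.2 CPM without and 1132 and 761 CPM with ATRA (log2 fold change 6.11 ± 0.35, edgeR adjusted p = 0.00015), a 69.1-fold change, although NCF1 has near-identical pseudogene copies and its count is uncertain. The fitted fold change of NCF1 was larger than those of both membrane subunits, a difference that was not tested. Without scramble+ATRA library 1 8 of 9 tested members were called higher. RAC2, the GTPase of the complex, rose 2.80-fold from 81.3 and 95.0 CPM (edgeR adjusted p = 0.0045), whereas NCF4, another cytosolic subunit, had a log2 fold change of 0.86 ± 0.31 and was not called (edgeR adjusted p = 0.126), except without scramble+ATRA library 1, at 1.12.

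**Figure D2:**
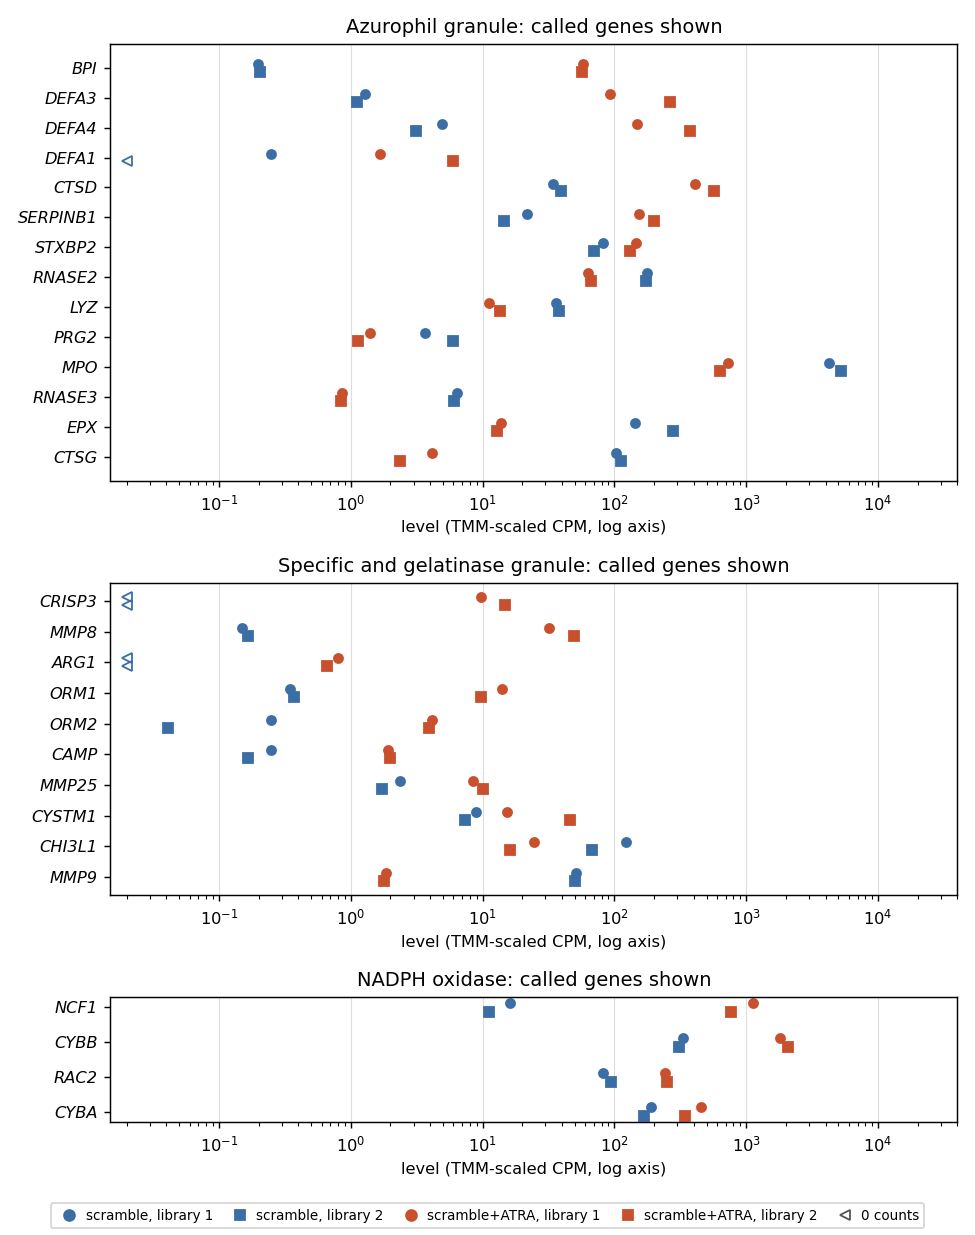
Level of the called genes of the azurophil granule, specific and gelatinase granule and NADPH oxidase lists in the 4 libraries, as TMM-scaled CPM on a log axis (colours and symbols as in the legend, open triangles 0 counts). The azurophil panel holds 7 genes that lie higher and 7 that lie lower with ATRA, the granule panel 8 and 2, and the 4 oxidase genes shown lie higher.

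Adhesion molecules moved upward in most called cases, with 13 genes higher and 2 lower among 22 tested of 24 and a median log2 fold change of 1.54. CEACAM1, a carcinoembryonic antigen-related adhesion molecule, had 0 and 1 counts without ATRA and 265 and 120 with ATRA, a ratio of 634-fold (95% exact counting interval 113 to 25101). ITGAM, the CD11b chain whose surface level is the usual read-out of ATRA-induced differentiation, was at 20.3 and 25.7 CPM without and 217 and 157 CPM with ATRA (log2 fold change 3.02 ± 0.26, edgeR adjusted p = 0.000727). ITGAX, the CD11c chain, was at 5.65 and 10.7 CPM without and 98.4 and 93.2 CPM with ATRA (log2 fold change 3.54 ± 0.34, edgeR adjusted p = 0.00108).

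The common β2 chain of these integrins, ITGB2, rose 3.0-fold from 148 and 164 CPM to 504 and 434 CPM (edgeR adjusted p = 0.00367), and the CD11a chain ITGAL rose 3.49-fold (edgeR adjusted p = 0.0168). All 3 α chains named here and their β chain were therefore higher. ITGB7 was at 2.68 and 2.48 CPM without and 109 and 82.2 CPM with ATRA (log2 fold change 5.21 ± 0.28, edgeR adjusted p = 0.000127). ITGA6, a laminin-binding chain, was at 12.2 and 12.8 CPM without and 169.5 and 157 CPM with ATRA (log2 fold change 3.70 ± 0.22, edgeR adjusted p = 0.000171). ITGA5, the fibronectin receptor chain, fell from 269.6 and 261 CPM to 77.8 and 68.3 CPM (log2 fold change -1.86 ± 0.21, edgeR adjusted p = 0.00185). CD44, the hyaluronan receptor, fell from 13.6 and 28.3 CPM to 2.21 and 4.42 CPM (log2 fold change -2.68 ± 0.50, edgeR adjusted p = 0.014). Among the rises, exons of ITGB7, ICAM1 and ICAM3 are overlapped on the opposite strand over 42.3%, 25.4% and 75.4% of their length.

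Among chemoattractant receptors 10 genes were higher and 2 lower of 16 tested and 24 listed, with a median log2 fold change of 1.92. P2RY13, a receptor for ADP, was at 0.0496 and 0.248 CPM without and 42.9 and 56.5 CPM with ATRA (log2 fold change 8.25 ± 0.50, edgeR adjusted p = 0.000176). FPR2, a formyl peptide receptor, had 2 and 2 counts without ATRA and 47 and 43 with ATRA, a ratio of 37.0-fold (95% exact counting interval 14 to 139). FPR1, the high-affinity receptor for bacterial formyl peptides, was at 0.248 and 0.289 CPM without and 2.21 and 3.10 CPM with ATRA (log2 fold change 3.26 ± 0.55, edgeR adjusted p = 0.00932). Both formyl peptide receptors remained at low counts with ATRA.

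CXCR2, a receptor for CXCL8, rose 5.25-fold to 19.6 and 25.8 CPM (edgeR adjusted p = 0.00515), and CCR1 6.76-fold to 74.4 and 76.0 CPM (edgeR adjusted p = 0.000592). The receptors for complement C5a, leukotriene B4 and platelet-activating factor were also higher, with log2 fold changes of 2.13 ± 0.35 for C5AR1, 2.15 ± 0.28 for C5AR2, 1.46 ± 0.21 for LTB4R and 1.6 ± 0.20 for PTAFR. CXCR4, which retains cells in the marrow, was at 43.0 and 38.2 CPM without and 105 and 160.0 CPM with ATRA (log2 fold change 1.71 ± 0.26, edgeR adjusted p = 0.00647). S1PR3, a sphingosine-1-phosphate receptor, fell from 22.2 and 28.0 CPM to 0.920 and 0.564 CPM (log2 fold change -5.03 ± 0.40, edgeR adjusted p = 0.000448). P2RY2, a receptor for ATP and UTP, fell from 83.4 and 118 CPM to 46.7 and 22.7 CPM (log2 fold change -1.53 ± 0.37, edgeR adjusted p = 0.0361). CXCR1 was not tested.

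Fc, complement and activating receptors showed 6 genes higher and 3 lower among 17 tested of 22, with a median log2 fold change of 0.80 (0.49 without scramble+ATRA library 2 to 0.83 without scramble library 2). The signalling adaptors TYROBP and FCER1G, through which many activating receptors act, were at 8.93 and 7.60 CPM without and 42.8 and 52.0 CPM with ATRA and at 22.2 and 17.7 CPM without and 45.9 and 59.0 CPM with ATRA, with log2 fold changes of 2.52 ± 0.24 and 1.39 ± 0.25. CLEC7A, the β-glucan receptor dectin-1, went from 0 and 1 to 24 and 11 counts, a ratio of 57.6-fold (95% exact counting interval 9.69 to 2340.3). CD55, which protects cells from complement, rose 4.16-fold (edgeR adjusted p = 0.0023). Adaptors thus rose without a call for the Fcγ receptors FCGR1A, FCGR2A, FCGR2B and FCGR2C, whose counts are uncertain because they share sequence.

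Lower in this group were CLEC4E, the mycobacterial glycolipid receptor Mincle, at -2.93 ± 0.44, CLEC5A at -2.12 ± 0.45 and FCGR1B at -1.68 ± 0.41 on the log2 scale. Of 25 Toll-like receptor and adaptor genes 15 were tested, 4 were higher and 0 lower, and all 4 act inside the cell. MYD88, the adaptor of most of these receptors, was at 32.7 and 26.4 CPM without and 75.7 and 75.9 CPM with ATRA (log2 fold change 1.36 ± 0.22, edgeR adjusted p = 0.00859), the adaptor TIRAP had a log2 fold change of 1.54 ± 0.31, and the kinases IRAK2 and IRAK4 of 2.05 ± 0.44 and 0.86 ± 0.22. The receptors TLR1, TLR3, TLR4 and TLR6 were tested and not called, with log2 fold changes between 0.53 and 1.16, except for TLR6 without scramble+ATRA library 2, at 1.52.

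Leukotriene and prostaglandin synthesis held some of the largest changes, with 5 genes higher and 0 lower among 11 tested of 20. ALOX5AP (FLAP, chr13:30713478-30764426), which presents arachidonic acid to 5-lipoxygenase, was at 3.52 and 4.54 CPM without and 1175 and 1425 CPM with ATRA (log2 fold change 8.33 ± 0.31, edgeR adjusted p = 7.87e-05). PTGES, prostaglandin E synthase, had 0 and 0 counts without ATRA and 1235 and 1015 with ATRA, at least 628-fold higher (edgeR adjusted p = 0.000127). CYP4F3, the ω-hydroxylase that inactivates leukotriene B4, is not on this list and was among the 10 largest rises at 0.942 and 0.289 CPM without and 119 and 161 CPM with ATRA (log2 fold change 7.86 ± 0.50, edgeR adjusted p = 0.000211).

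PTGS1, cyclooxygenase 1, rose 8.10-fold from 20.9 and 17.5 CPM to 148 and 163 CPM (edgeR adjusted p = 0.000372). TBXAS1, thromboxane synthase, rose 2.71-fold (edgeR adjusted p = 0.005). LTC4S, leukotriene C4 synthase, rose 8.71-fold at under 2 CPM (edgeR adjusted p = 0.0169). ALOX5, the 5-lipoxygenase itself, is listed at 0 in all 4 libraries, as are NEU1 and TNF, and a 0 in these files is not taken as absence of the transcript. In this list 8 genes were called higher without scramble+ATRA library 1. The median log2 fold change of the list was 0.52 (0.25 without scramble+ATRA library 2 to 1.43 without scramble library 1).

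In the S100 and annexin list 5 genes were higher and 3 lower of 20 tested and 23 listed, and the median log2 fold change was 0.42 (0.09 without scramble+ATRA library 2 to 0.51 without scramble library 1). In this list 8 genes were called higher without scramble+ATRA library 2. S100A8 and S100A9 form calprotectin, the abundant cytosolic protein of neutrophils. S100A8 was at 1.44 and 0.826 CPM without and 132 and 155 CPM with ATRA (log2 fold change 6.99 ± 0.35, edgeR adjusted p = 0.000123). S100A9 was at 8.73 and 3.64 CPM without and 479.6 and 549 CPM with ATRA (log2 fold change 6.38 ± 0.46, edgeR adjusted p = 0.000334). Both subunits thus rose, and S100A12 went from 0 and 1 to 23 and 41 counts, a ratio of 105-fold (95% exact counting interval 18.2 to 4226). ANXA1, annexin A1, rose 1.96-fold (edgeR adjusted p = 0.031) and S100B 2.22-fold (edgeR adjusted p = 0.0471). ANXA2 fell from 55.1 and 50.2 CPM to 18.8 and 13.8 CPM (log2 fold change -1.69 ± 0.25, edgeR adjusted p = 0.00534). ANXA6 fell 1.79-fold (edgeR adjusted p = 0.0384). S100A16 went from 46 and 33 counts to 0 and 0, at least 7.82-fold lower (edgeR adjusted p = 0.00998).

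Inflammatory mediators were called higher in 7 and lower in 1 of 14 genes tested, of 30 listed, with a median log2 fold change of 1.79 (0.86 without scramble+ATRA library 2 to 2.94 without scramble library 2). CCL2, which attracts monocytes, was at 61.6 and 14.8 CPM without and 472 and 723 CPM with ATRA (log2 fold change 3.97 ± 0.65, edgeR adjusted p = 0.00815), and its scramble libraries differed over 4-fold. CXCL8, the main neutrophil attractant, was at 11.8 and 8.51 CPM without and 77.9 and 196 CPM with ATRA (log2 fold change 3.75 ± 0.47, edgeR adjusted p = 0.0027). CCL24, an eosinophil attractant, was at 0.198 and 0.207 CPM without and 30.5 and 52.3 CPM with ATRA (log2 fold change 7.62 ± 0.46, edgeR adjusted p = 0.000171). CCL22, an attractant for T cells, was at 1.88 and 1.40 CPM without and 33.5 and 38.8 CPM with ATRA (log2 fold change 4.46 ± 0.31, edgeR adjusted p = 0.000296). In each of these 4 chemokines both scramble+ATRA libraries lay above both scramble libraries. IL1B, interleukin-1β, rose 8.23-fold to 11.6 and 16.8 CPM (edgeR adjusted p = 0.00269) and IL1A went from 0 and 1 to 30 and 47 counts. Their natural antagonist IL1RN fell 9.57-fold from 3.97 and 3.26 CPM to 0.368 and 0.376 CPM (edgeR adjusted p = 0.00647). TGFB1 rose 2.28-fold (edgeR adjusted p = 0.0329).

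Cytokine and growth factor receptors showed 7 genes higher and 3 lower of 20 tested and 25 listed, with a median log2 fold change of 0.62. In this list 5 were called lower without scramble+ATRA library 1. CSF3R, the G-CSF receptor that drives neutrophil production, was at 66.1 and 64.4 CPM without and 275 and 247 CPM with ATRA (log2 fold change 2.0 ± 0.21, edgeR adjusted p = 0.00137). FLT3, a receptor tyrosine kinase of progenitors, fell from 18.4 and 12.4 CPM to 1.66 and 2.91 CPM (log2 fold change -2.77 ± 0.43, edgeR adjusted p = 0.00647). TNFRSF1B, the second TNF receptor, was at 0.992 and 0.785 CPM without and 7.11 and 8.84 CPM with ATRA (log2 fold change 3.16 ± 0.41, edgeR adjusted p = 0.00351). TGFBR1 and IL17RA, which bind TGF-β and interleukin-17, fell 3.67-fold and 3.40-fold (edgeR adjusted p = 0.0106 and 0.00817). The GM-CSF receptor chains CSF2RA and CSF2RB had log2 fold changes of 2.27 ± 0.59 and 0.99 ± 0.23, the first at under 4 CPM in each library and not called without scramble+ATRA library 1 (log2 fold change 1.52, edgeR adjusted p = 0.158).

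Surface antigens used to stage myeloid cells were higher in 8 and lower in 3 of 17 genes tested, of 27 listed, with a median log2 fold change of 1.36. CD38, an ectoenzyme induced by retinoids in myeloid cells, was at 114 and 106 CPM without and 459 and 469 CPM with ATRA (log2 fold change 2.07 ± 0.20, edgeR adjusted p = 0.00115), and the 2 libraries of each group lay within 10% of each other. ANPEP, the aminopeptidase CD13, fell from 457 and 459.9 CPM to 190.2 and 129 CPM (log2 fold change -1.52 ± 0.25, edgeR adjusted p = 0.00835). CD300A, an inhibitory receptor, was at 2.23 and 6.82 CPM without and 38.8 and 53.6 CPM with ATRA (log2 fold change 3.34 ± 0.50, edgeR adjusted p = 0.0061). CD74, the invariant chain of MHC class II, went from 1 and 3 to 75 and 69 counts, a ratio of 59.3-fold (95% exact counting interval 22.7 to 220.5), and CD86, a co-stimulatory ligand, rose 7.69-fold at low level (edgeR adjusted p = 0.00558). The tetraspanins CD9 and CD82 fell 3.77-fold and 3.06-fold (edgeR adjusted p = 0.024 and 0.00926). CD33, the classical marker of myeloid leukemia, was not called at a log2 fold change of 0.56 ± 0.22, except without scramble+ATRA library 2, at 0.69.

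Acute promyelocytic leukemia is known for bleeding and clotting, and ATRA for correcting it. In the coagulation and fibrinolysis list 5 genes were higher and 2 lower of 15 tested and 24 listed, with a median log2 fold change of 0.38 (0.17 without scramble+ATRA library 2 to 0.56 without scramble library 1). F3, tissue factor, which starts coagulation, fell 10.8-fold from 36.7 and 29.7 CPM to 2.88 and 3.29 CPM (log2 fold change -3.43 ± 0.29, edgeR adjusted p = 0.000634). ANXA2, given above, which holds plasminogen and its activator at the cell surface, was the other fall. SERPINB2, an inhibitor of plasminogen activators, was at 0.0496 and 0.207 CPM without and 7.73 and 10.8 CPM with ATRA (log2 fold change 6.05 ± 0.63, edgeR adjusted p = 0.00142). F5, coagulation factor V, was at 0.0496 and 0.165 CPM without and 20.6 and 8.65 CPM with ATRA (log2 fold change 6.95 ± 0.72, edgeR adjusted p = 0.00137). The call thus covered a starter of clotting and a plasminogen receptor among the falls, and a fibrinolysis inhibitor and a clotting cofactor among the rises. PLAU, the urokinase gene, rose 2.37-fold (edgeR adjusted p = 0.0101). FGL2, a prothrombinase, rose 5.62-fold (edgeR adjusted p = 0.0159). PROS1, protein S, rose 2.71-fold (edgeR adjusted p = 0.045). THBD, thrombomodulin, was not called at 0.56 ± 0.36.

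Myeloid transcription factors were called higher in 10 and lower in 5 of 47 tested, of 53 listed, around a median log2 fold change of -0.14 (-0.12 without scramble library 1 to 0.11 without scramble library 2). In this list 12 and 10 were called lower without scramble+ATRA library 1 and without library 2, respectively. The C/EBP family, which orders granulocyte maturation, was divided. CEBPE, required for the late stages, was at 50.6 and 73.2 CPM without and 427 and 342 CPM with ATRA (log2 fold change 2.64 ± 0.27, edgeR adjusted p = 0.00133). CEBPB, active in emergency granulopoiesis, was at 16.5 and 16.6 CPM without and 183 and 121 CPM with ATRA (log2 fold change 3.20 ± 0.27, edgeR adjusted p = 0.00067). CEBPA, which acts at the entry to the lineage, fell 1.85-fold from 215 and 159 CPM to 96.4 and 106 CPM (edgeR adjusted p = 0.0476), and 43.9% of its exon length is overlapped on the opposite strand. SPI1, which encodes PU.1, the factor common to granulocytes and monocytes, rose 2.62-fold from 137 and 170.2 CPM to 495 and 309.5 CPM (edgeR adjusted p = 0.0192).

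Other rises were ID1 and ID2, inhibitors of helix-loop-helix factors, at log2 fold changes of 5.99 ± 0.63 and 3.38 ± 0.40, and the repressor GFI1B, at 1.14 and 1.32 CPM without and 45.1 and 39.9 CPM with ATRA (log2 fold change 5.10 ± 0.29, edgeR adjusted p = 0.000149). IRF1, an interferon-regulated factor, BCL6, a repressor, and the MYC antagonist MXD1 rose 6.65-fold, 4.36-fold and 2.42-fold (edgeR adjusted p = 0.00159, 0.00979 and 0.0097). KLF4, a factor of the monocyte lineage, fell from 5.65 and 6.61 CPM to 0.245 and 0.376 CPM (log2 fold change -4.31 ± 0.50, edgeR adjusted p = 0.00204). PPARG, a lipid-sensing receptor, fell from 8.23 and 6.03 CPM to 0.307 and 0.752 CPM (log2 fold change -3.80 ± 0.55, edgeR adjusted p = 0.00509). GATA2, a factor of progenitors, fell from 67.7 and 110.1 CPM to 26.0 and 24.1 CPM (log2 fold change -1.83 ± 0.29, edgeR adjusted p = 0.00697). ZEB2, a repressor, fell 2.49-fold (edgeR adjusted p = 0.00606). MYC was at 446 and 605 CPM without and 264 and 319 CPM with ATRA and MYB at 281 and 427 CPM without and 157 and 234 CPM with ATRA, without overlap between groups, and neither was called at log2 fold changes of -0.85 ± 0.24 and -0.86 ± 0.29 (edgeR adjusted p = 0.0606 and 0.111). Without scramble+ATRA library 1 or without library 2 both were called lower, at -0.73 and -1.01 for MYC and -0.61 and -1.18 for MYB.

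ATRA-treated NB4 cells are known to stop dividing as they mature, so genes of the cell cycle were read in 3 lists. Of 45 DNA replication genes tested 0 were called by edgeR, 0 higher and 2 lower at an unadjusted p under 0.05 and 0 and 2 by DESeq2, and the median log2 fold change was -0.26 (-0.31 without scramble library 2 to -0.10 without scramble library 1). Some genes of this list, more of them lower than higher, were called without scramble+ATRA library 1, a fit with more calls over all genes tested. The groups did not overlap in 26 of all 45, a share close to the 56.9% of all genes tested and so not a result about this list, and in 23 of the 26 the scramble+ATRA libraries were the lower ones. MCM4, a subunit of the replicative helicase, was at 531 and 548 CPM without and 362 and 278 CPM with ATRA and was not called (log2 fold change -0.75 ± 0.22, edgeR adjusted p = 0.0686), except without scramble+ATRA library 1, at -0.97. Of 45 mitosis genes 0 were called by edgeR, 1 higher and 1 lower at an unadjusted p under 0.05 and 0 and 1 by DESeq2, around a median of 0.04 (0.00 without scramble library 2 to 0.17 without scramble library 1). A few mitosis genes, most of them lower, were called without scramble+ATRA library 1, in the same fit with more calls over all genes tested. MKI67, the Ki-67 antigen of cycling cells, was at 986 and 1161 CPM without and 1476 and 534 CPM with ATRA and not called (log2 fold change -0.09 ± 0.42, edgeR adjusted p = 0.914). Its 2 scramble+ATRA libraries lay on either side of the scramble libraries. Without scramble+ATRA library 1 its log2 fold change was -1.02 and it was called (edgeR adjusted p = 0.000313), so the result for MKI67 depends on which library is used.

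Regulators of the G1 phase were the last of these lists, with 4 genes higher and 2 lower of 20 tested and 23 listed. In this list 8 were called higher without scramble+ATRA library 1. CDKN1A, the cyclin-dependent kinase inhibitor p21, was at 0.545 and 0.620 CPM without and 6.93 and 7.52 CPM with ATRA (log2 fold change 3.61 ± 0.42, edgeR adjusted p = 0.00213). CDKN2D, the inhibitor p19 of CDK4 and CDK6, was at 25.6 and 19.7 CPM without and 77.1 and 82.8 CPM with ATRA (log2 fold change 1.82 ± 0.24, edgeR adjusted p = 0.00336). BTG2 and GADD45A, which restrain growth, rose 8.15-fold and 5.43-fold (edgeR adjusted p = 0.00309 and 0.00226). All 4 rises were of genes that act against division, as do many members of this list, so this is not a result about the list. CDK4, the kinase of the G1 phase, fell 1.73-fold (edgeR adjusted p = 0.0458), with 44.2% of its exon length overlapped on the opposite strand. GADD45B, of the same family as GADD45A, moved the other way and fell 2.79-fold (edgeR adjusted p = 0.0248).

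Ribosome biogenesis genes lay mostly lower with ATRA. Of 50 tested 0 were called higher and 1 lower, but 18 were lower and 0 higher at an unadjusted p under 0.05, DESeq2 called 12 lower and 0 higher, and the groups did not overlap in 43, of which 41 were lower with ATRA, beside 56.9% of all genes tested without overlap. The median log2 fold change was -0.51. More genes of this list were called lower without either scramble+ATRA library, most of them without library 1, as were more of all genes tested. In the second scramble+ATRA library the median was -0.71, against -0.39 in the first. PPAN, a factor of large-subunit assembly and the gene called, was at 7.83 and 9.87 CPM without and 3.31 and 1.6 CPM with ATRA (log2 fold change -1.83 ± 0.45, edgeR adjusted p = 0.0397). BOP1, also of the large subunit, was at 93.8 and 97.2 CPM without and 66.4 and 42.1 CPM with ATRA and was not called (log2 fold change -0.81 ± 0.26, edgeR adjusted p = 0.0955), except without scramble+ATRA library 1, at -1.19.

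**Figure D3:**
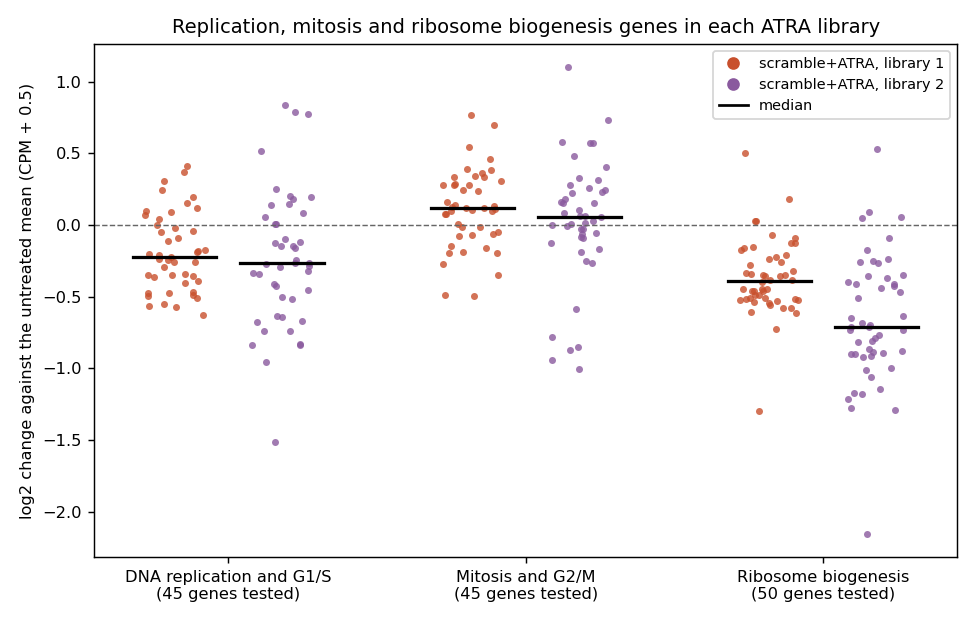
Log2 change of each tested gene of 3 lists in scramble+ATRA library 1 (orange) and library 2 (purple) against the mean of the scramble libraries, from CPM plus 0.5, with medians as black bars. Of 50 ribosome biogenesis genes 44 lie below 0 in both libraries and 2 above 0 in both. The medians are -0.39 and -0.71 for ribosome biogenesis, -0.22 and -0.27 for replication and 0.12 and 0.06 for mitosis.

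Sugar metabolism was called higher in 7 and lower in 2 of 30 genes, with a median log2 fold change of 0.26 (0.05 without scramble library 1 to 0.52 without scramble library 2). The hexokinases, which trap glucose in the cell, were called in opposite directions. HK3 was at 0.992 and 0.454 CPM without and 160.0 and 125 CPM with ATRA (log2 fold change 7.64 ± 0.41, edgeR adjusted p = 0.000127). HK2 was at 176 and 258 CPM without and 113 and 84.2 CPM with ATRA (log2 fold change -1.13 ± 0.27, edgeR adjusted p = 0.0359), and HK1 was not called at 0.04 ± 0.35. Enzymes of the pentose phosphate pathway, which supplies the oxidase with NADPH, included further rises. PGD was at 308 and 311 CPM without and 1887 and 1486 CPM with ATRA (log2 fold change 2.45 ± 0.22, edgeR adjusted p = 0.000772). TKT, transketolase, was at 547 and 607 CPM without and 2595 and 1960.1 CPM with ATRA (log2 fold change 1.98 ± 0.22, edgeR adjusted p = 0.00185). PKM, pyruvate kinase, rose 2.79-fold (edgeR adjusted p = 0.00527). PFKFB3, which stimulates glycolysis, rose 2.56-fold (edgeR adjusted p = 0.00926). PGAM1, phosphoglycerate mutase, rose 2.33-fold (edgeR adjusted p = 0.016). ENO2, the neuronal enolase, fell from 54 and 112 counts to 4 and 0 (edgeR adjusted p = 0.0131). GAPDH, often used as a reference, was at 4286 and 4527 CPM without and 4749 and 3909.5 CPM with ATRA and not called (log2 fold change -0.03 ± 0.18).

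Of 28 genes of the TCA cycle and its entry 3 (10.7%) were higher and 1 (3.57%) lower, around a median of 0.16. These shares were close to the 7.67% and 4.84% of all genes tested and so not a result about this list. The succinate dehydrogenase subunits SDHD and SDHB rose 2.44-fold and 1.90-fold and IDH3A, of isocitrate dehydrogenase, 1.95-fold (edgeR adjusted p = 0.0238, 0.0247 and 0.0202), and PDK1, a kinase that closes the entry of pyruvate, fell from 48.2 and 65.1 CPM to 21.0 and 22.2 CPM (edgeR adjusted p = 0.0105). Lysosome and autophagy genes were higher in 10 and lower in 1 of 33 tested, with a median log2 fold change of 0.81. More genes of this list were called higher without scramble+ATRA library 1, as were more of all genes tested. CTSS, the protease cathepsin S, was at 41.7 and 32.3 CPM without and 105 and 144 CPM with ATRA (log2 fold change 1.75 ± 0.26, edgeR adjusted p = 0.00533). CTSZ was at 76.4 and 85.6 CPM without and 325 and 223 CPM with ATRA (log2 fold change 1.76 ± 0.25, edgeR adjusted p = 0.005). CTSH, another protease of this family, fell from 85.0 and 102 CPM to 25.3 and 21.6 CPM (log2 fold change -1.99 ± 0.23, edgeR adjusted p = 0.00211). The largest rise of the list, WIPI1 of autophagosome formation, rested more on the second scramble+ATRA library, at 1.19 and 1.69 CPM without and 5.09 and 17.6 CPM with ATRA with a log2 fold change of 2.96 that became 1.79 without that library, and 28.1% of its exon length is overlapped on the opposite strand.

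Interferon-stimulated genes, which encode antiviral effectors, were higher in 17 and lower in 1 of 34 tested and 40 listed, with a median log2 fold change of 1.30. OASL, a relative of the 2-5A synthetases, was at 0.248 and 0.661 CPM without and 4.97 and 7.61 CPM with ATRA (log2 fold change 3.74 ± 0.58, edgeR adjusted p = 0.00668). GBP1 and GBP4, guanylate-binding proteins, went from 0 and 2 to 38 and 23 and from 1 and 0 to 19 and 13 counts, ratios of 50.2-fold (95% exact counting interval 13.3 to 424) and 52.7-fold (95% exact counting interval 8.80 to 2145). BST2, tetherin, which holds budding virus at the cell surface, was at 86.4 and 78.2 CPM without and 185 and 239 CPM with ATRA (log2 fold change 1.36 ± 0.22, edgeR adjusted p = 0.00838). OAS1 and IFIT5 were at 2.08 and 10.5 CPM and 4.23 and 16.1 CPM with ATRA, so that the second library was above the first in both, and without it their log2 fold changes were 1.97 and 2.28 in place of 3.56 and 3.53. HERC5, the ligase that attaches ISG15, fell from 20.7 and 17.7 CPM to 3.37 and 5.45 CPM (log2 fold change -2.13 ± 0.35, edgeR adjusted p = 0.00867) whereas ISG15 itself rose 3.82-fold (edgeR adjusted p = 0.0105). Without the second scramble+ATRA library 18 genes were called higher, 1 lower and the median was 1.16.

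Regulators of cell death were called higher in 4 (13.3%) and lower in 1 (3.33%) of 30 tested and 35 listed, around a median of 0.21. Over all genes tested these shares were 7.67% and 4.84%. In this list 7 were called higher without scramble+ATRA library 1 or library 2. Of the survival proteins, 2 were called higher and 1 lower. BCL2A1 was at 5.26 and 3.31 CPM without and 225 and 238 CPM with ATRA (log2 fold change 5.76 ± 0.31, edgeR adjusted p = 0.000127). BCL2 was at 18.6 and 35.2 CPM without and 3.0 and 2.63 CPM with ATRA (log2 fold change -3.25 ± 0.40, edgeR adjusted p = 0.00261). MCL1, which neutrophils need to survive, rose 2.21-fold (edgeR adjusted p = 0.0124), the pore-forming BAK1 2.37-fold (edgeR adjusted p = 0.00817) and CASP10 2.21-fold (edgeR adjusted p = 0.0361). TNFSF10, the ligand TRAIL, was not called at -0.12 ± 0.40, nor were its receptors TNFRSF10A at 0.15 ± 0.24 and TNFRSF10B at 0.06 ± 0.21 on the log2 scale.

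The actin and motility list held 9 genes higher and 2 lower of 41 tested, with a median log2 fold change of 0.57. More genes of this list were called without scramble+ATRA library 1, and more were called higher without library 2, as were more of all genes tested. FGR, a SRC-family kinase downstream of integrins, was at 3.22 and 1.78 CPM without and 554 and 445 CPM with ATRA (log2 fold change 7.65 ± 0.39, edgeR adjusted p = 0.000123). LYN was at 71.9 and 63.6 CPM without and 172 and 192 CPM with ATRA (log2 fold change 1.42 ± 0.21, edgeR adjusted p = 0.00527). WAS, the Wiskott-Aldrich protein that starts actin branching, was at 80.3 and 78.6 CPM without and 245 and 206 CPM with ATRA (log2 fold change 1.5 ± 0.21, edgeR adjusted p = 0.00446). Its partner WIPF1 rose 2.55-fold (edgeR adjusted p = 0.00605). PIK3CG, the kinase downstream of chemoattractant receptors, rose 3.35-fold from 27.4 and 44.9 CPM to 153 and 89.1 CPM (edgeR adjusted p = 0.0183). The called rises thus include kinases and the starters of actin branching, whereas CDC42EP3, an effector of CDC42, fell 5.25-fold and CORO1C 1.70-fold (edgeR adjusted p = 0.00123 and 0.0476). ACTB, β-actin, was at 4961 and 6282 CPM without and 7697 and 8998 CPM with ATRA and not called (log2 fold change 0.57 ± 0.19), but it was called higher without scramble+ATRA library 1, at 0.67 (edgeR adjusted p = 0.00412).

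Peptidylarginine deiminases convert arginine to citrulline, and PADI4 does so on histones in neutrophils. PADI4 was at 7.83 and 4.09 CPM without and 395 and 308 CPM with ATRA (log2 fold change 5.89 ± 0.39, edgeR adjusted p = 0.000253). PADI2 was at 6.89 and 5.70 CPM without and 252 and 223 CPM with ATRA (log2 fold change 5.24 ± 0.25, edgeR adjusted p = 0.000121), while the other 3 of 5 members were not tested. Of the KDM3 histone demethylases, 0 of 3 were called by edgeR, 0 higher and 1 lower at an unadjusted p under 0.05 and 0 and 1 by DESeq2. The lower one was KDM3A, at 52.9 and 60.4 CPM without and 37.6 and 31.8 CPM with ATRA (log2 fold change -0.71 ± 0.22, edgeR adjusted p = 0.0879), and without scramble+ATRA library 1 it was called lower by edgeR, at -0.85 (edgeR adjusted p = 0.00953). KDM3B, the gene that the study silenced in its other cells, was at 185 and 185 CPM without and 197 and 124 CPM with ATRA (log2 fold change -0.21 ± 0.26, edgeR adjusted p = 0.657), with the second scramble+ATRA library below the others. The median over the family was -0.21 (-0.59 without scramble+ATRA library 1 to 0.07 without scramble+ATRA library 2).

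Marker lists of cell stages and of other cells were read beside these results. The promyelocyte list had 0 genes higher and 3 lower of 6 tested (MPO, CTSG and ANPEP), and its summed level was 5135 and 6337 CPM without ATRA and 1192 and 1083 CPM with ATRA. Its members ELANE, AZU1 and PRTN3 were at or below 24 counts in each library, without ATRA as well as with it. As for the zeros above, such low counts are not taken as absence of these transcripts. The mature neutrophil list had 3 genes higher (FFAR2, CSF3R and CXCR2) and 0 lower of 5 tested, with a summed level of 73.2 and 70.4 CPM without ATRA and 349 and 324 CPM with ATRA. FFAR2, a receptor for short-chain fatty acids, was at 0.645 and 0.620 CPM without and 43.3 and 46.3 CPM with ATRA (log2 fold change 6.13 ± 0.30, edgeR adjusted p = 0.000121). FCGR3B, CXCR1, MME, CD177, ALPL and CEACAM3 were at 2 or fewer counts in each library, too few to test.

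Monocyte and macrophage markers were higher in 3 of 4 tested and 16 listed, among them S100A12, given above, and MERTK, a receptor for dying cells, at 2.48 and 4.17 CPM without and 71.7 and 52.7 CPM with ATRA (log2 fold change 4.22 ± 0.34, edgeR adjusted p = 0.000539). The summed level of that list was 9.57 and 12.6 CPM without ATRA and 104 and 92.9 CPM with ATRA, while CD163, MSR1, FCGR3A, C1QB and C1QC were at 0 in all 4 libraries and CD14 had 3 and 7 counts without ATRA and 8 and 7 with ATRA. Eosinophil and basophil markers were higher in 2 and lower in 4 of 10 tested, with summed levels of 349.7 and 609.8 CPM without ATRA and 48.2 and 70.5 CPM with ATRA. The falls there were EPX, PRG2, MS4A2 and HDC, the histamine-forming enzyme, which was at 195 and 318 CPM without and 12.4 and 12 CPM with ATRA (log2 fold change -4.39 ± 0.31, edgeR adjusted p = 0.000306). Of the rises, CLC was at 0.248 and 0.578 CPM without and 8.34 and 30.8 CPM with ATRA (log2 fold change 5.51 ± 0.78, edgeR adjusted p = 0.00463). The other was CCR3, the eotaxin receptor, at 0.496 and 0.289 CPM without and 9.01 and 9.87 CPM with ATRA (log2 fold change 4.58 ± 0.47, edgeR adjusted p = 0.0013). Of 15 erythroid and megakaryocyte genes 8 were at 0 in all 4 libraries, HBB and PF4 among them, with summed levels of 12.3 and 13.2 CPM without ATRA and 7.79 and 9.40 CPM with ATRA, and 0 of 2 tested were called by edgeR, also at an unadjusted p under 0.05 and by DESeq2. Among lymphoid markers 2 genes, CD79A among them, rose and CD79B fell, of 5 tested and 12 listed, with summed levels of 59.0 and 45.2 CPM without ATRA and 56.8 and 78.0 CPM with ATRA and a median log2 fold change of 0.08 (-0.24 without scramble+ATRA library 2 to 0.36 without scramble library 2). Among 11 stromal and epithelial markers PECAM1, which leukocytes also carry, rose, of 4 tested, with summed levels of 65.0 and 54.4 CPM without ATRA and 123 and 106 CPM with ATRA, and COL1A1, a collagen chain, was at 14 or fewer counts in each library. Of the last lists, 1 lymphoid and 3 stromal and epithelial genes were called higher without scramble+ATRA library 2. The part of other cells in these changes was not tested.

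Among called genes with more than 3 counts in each library, the 10 largest rises included MT-TS1, ALOX5AP, BPI, CYP4F3, FGR, HK3, CCL24 and PALLD, the last an actin-binding protein at 1.19 and 0.785 CPM without and 131 and 169.7 CPM with ATRA (log2 fold change 7.25 ± 0.34, edgeR adjusted p = 0.000121). MT-TS1, a mitochondrial serine tRNA, was at 2.08 and 0.868 CPM without and 7.79 and 1012 CPM with ATRA (log2 fold change 8.45 ± 2.06, edgeR adjusted p = 0.0386), and without the second scramble+ATRA library its log2 fold change was 2.40. These 8 genes were called without that library as well.

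Among genes at 3 or fewer counts in both scramble libraries, 104 were called higher. Besides TGM2, these included HIC1, a transcriptional repressor, which went from 1 and 0 to 899 and 1572 counts, a ratio of 4068-fold (95% exact counting interval 729.5 to 160757), with 29.8% of its exon length overlapped on the opposite strand. SELP, P-selectin, went from 0 and 1 to 238 and 213 counts, a ratio of 743-fold (95% exact counting interval 133 to 29393), and PLIN5, a lipid droplet protein, from 3 and 1 to 158 and 99 counts. C10orf105 and DNAH17, with 71.7% and 12.6% of their exon length overlapped in this way, also entered this set with 4.23 and 38.6 CPM and 1.35 and 25.8 CPM with ATRA, so that both were higher in the second library, and without it the log2 fold change of DNAH17 was 3.80 in place of 7.12 and that of C10orf105 was 5.14 in place of 7.47. SMIM25, which matched no entry of the annotation, had 200 and 113 counts with ATRA.

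By the same rule the 10 largest falls were PDE9A, VIM, CTSG, S1PR3, MEGF6, MMP2, ASS1, MMP9, STAB1 and MS4A3. VIM, the intermediate filament protein vimentin, was at 314 and 503 CPM without and 12 and 10.8 CPM with ATRA (log2 fold change -5.16 ± 0.32, edgeR adjusted p = 0.000189), and 24.6% of its exon length is overlapped on the opposite strand. ASS1, which makes argininosuccinate for arginine synthesis, was at 267 and 291 CPM without and 12.5 and 6.77 CPM with ATRA (log2 fold change -4.84 ± 0.34, edgeR adjusted p = 0.000306). MS4A3, a cell cycle regulator of granulocyte and monocyte progenitors, was at 90.8 and 103 CPM without and 3.13 and 4.04 CPM with ATRA (log2 fold change -4.76 ± 0.27, edgeR adjusted p = 0.00015). PDE9A, a cGMP phosphodiesterase, was at 27.9 and 29.0 CPM without and 0.858 and 0.470 CPM with ATRA (log2 fold change -5.36 ± 0.39, edgeR adjusted p = 0.000334). In these 4 genes the scramble+ATRA libraries were all below 13 CPM. MMP2, gelatinase A, fell 28.9-fold, STAB1, a scavenger receptor, 27.7-fold and MEGF6 32.1-fold (edgeR adjusted p = 0.000306, 0.00167 and 0.000635).

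Conversely, 67 genes called lower were at 3 or fewer counts in both scramble+ATRA libraries. ZBTB16, the transcription factor PLZF, which in another form of this leukemia is itself fused to the receptor, went from 121 and 250 counts to 0 and 0, at least 35.0-fold lower (edgeR adjusted p = 0.0018). CYTL1, a secreted cytokine-like protein of progenitors, went from 364 and 317 counts to 0 and 0, at least 66.8-fold lower (edgeR adjusted p = 0.000666). TRAC, the T cell receptor α constant region, went from 209 and 309 to 2 and 3 counts, and KCNN4, a calcium-activated potassium channel, from 137 and 227 to 1 and 2, with ratios of 62.9-fold (95% exact counting interval 26.8 to 195) and 73.7-fold (95% exact counting interval 25.0 to 359). RN7SL1, an RNA of the signal recognition particle, had 318 and 231 counts and then 0 and 0, and it shares sequence with many copies, so its count is uncertain.

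The 2 scramble+ATRA libraries differed from each other by over 4-fold in 0.662% of 6803 tested genes without an exon overlapped on the opposite strand, in 2.07% of 3287 with up to 10% of their exon length overlapped and in 6.57% of 1765 with more. The 2 scramble libraries differed so in 0.176%, 0.183% and 0.113%. By exon length, the second scramble+ATRA library was lower than the first in the longest of 4 equal groups of genes (median log2 difference -0.17) and higher in the shortest (0.08), and the scramble libraries showed 0.05 and -0.04. More than 10% of the exon length was also overlapped in IDH3A (38.8%), CTSZ (31.7%), PLAU (31.0%), MMP25 (30.6%), IRF1 (22.9%), MMP9 (18.4%), CEBPB (12.6%), TIRAP (12.1%) and CLEC5A (12%), all of which were called. Among the 6803 genes without overlap, fitted alone, 697 were called higher and 495 lower.

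The size of some called changes rested on 1 library, by over 1.5 times, while their direction did not. Without scramble+ATRA library 2 the log2 fold changes of CLC, CXCL8, DEFA3 and DEFA4 were 4.27, 2.93, 6.25 and 5.20 in place of 5.51, 3.75, 7.20 and 6.03. Those of S100A12, IL1A and HIC1 were 5.62, 6.0 and 10.89 in place of 6.47, 6.72 and 11.74. Those of STAB1, PPARG and TRAC, which fell, were -5.70, -4.52 and -6.50 in place of -4.79, -3.80 and -5.88. That of STAB1 was -4.16 without scramble+ATRA library 1, and that of DEFA1 was 3.76 without library 2 in place of 4.945. ENO2 and KCNN4, at -4.61 and -6.07, were at -9.08 and -5.39 without scramble+ATRA library 1 and at -3.88 and -6.92 without library 2. Without scramble+ATRA library 1 those of P2RY2 and PPAN were -2.16 and -2.48 in place of -1.53 and -1.83, and that of F5 was 6.18 in place of 6.95. Rises from low levels moved with the choice of scramble library, from 6.18 without library 2 to 10.60 without library 1 for SMIM25, from 3.89 to 9.02 for DEFA1 and from 3.27 to 5.32 for CCL2. By the same measure CYP26A1, CYP26B1, CYP4F3, HIC1, RARB, ID1, ID2, ORM2, SELP, CEACAM1, P2RY13, S100A9, S100A12, IL1A, SERPINB2, GBP1, GBP4, IFIT5, OASL, LILRB2, CLEC7A, CLC, F5, PLIN5, TGM3, HK3, ITGAL, CD44, CD74, ZBTB16, MT-TS1 and CD300A moved when a scramble library was left out. The rises of C10orf105, DNAH17, DEFA1, CLC, OAS1, IFIT5, WIPI1 and MT-TS1 were larger by over 1.5 times without scramble+ATRA library 1.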

How the data were processed

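RNA-seq libraries (TruSeq RNA kit) of NB4 cells with the control construct, 2 without and 2 with ATRA, were compared. Per the labels and the study's methods, the authors deposited raw HTSeq counts per gene name, made with HISAT2 on hg38 after trimming by Trim Galore, and whether counting used strand is not given in the sources used here. Summary lines of HTSeq and clone-accession names were left out, and names listed in all 4 files were kept. Counts were filtered with filterByExpr, scaled with TMM and tested with the quasi-likelihood test of edgeR 4.0.16 (R 4.3.3) with Benjamini-Hochberg adjustment. DESeq2 1.42.0, which the authors used, was an alternative, as were other scalings, filters and sets of libraries. On simulated data 55.1% of 200 genes changed 3-fold were recovered among 12177, and 0.025% of unchanged genes were called. Positions and exon overlaps are from GENCODE v44 on hg38, matched by name for 34769 of 36369 names, and promoters from RefSeq.

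Members and lists were chosen with earlier results of these data known. The genes named were a set of hallmark genes, up to 3 called rises and falls per list, the 10 largest rises and falls among called genes with more than 3 counts in each library, leading genes at 3 or fewer counts in both libraries of 1 group, and markers of other cells. Other called or uncalled list members were named after their values were seen. Reads without molecular identifiers are not independent molecules. A few genes that the naming rule covers are not reported here, although they stay in the counts and medians.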

Additional observations from a re-analysis of the deposited data

How the results depend on the processing

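Every called gene that could be tested under an alternative kept its direction and at least 1.5-fold change in all of them, and no call reversed. Calls numbered 946 higher and 597 lower as reported. Testing all genes with a count gave 1565 higher, and edgeR's unadjusted P at the thresholds of the study's methods 1842 higher and 1312 lower (1751 and 1271 with DESeq2, the tool of those methods). Leaving out 1 library at a time gave 0 to 2517 higher and 0 to 1822 lower, with a lone library assumed to vary like the other group. Both counts of 0 came without a scramble library, and the lower count was 963 without scramble+ATRA replicate 2. With the replicate number as a block, 859 were called higher and 487 lower. Same-numbered libraries deviated with a correlation of -0.093 over 11599 genes. With 2 libraries a group, this cannot show whether they share more than a number. Under the block MT-TS1, ANXA1, ANXA6, CEBPA, CSF2RA, CSF2RB, CDK4, HK2, IDH3A, IRAK4, PRG2, PROS1, S100B, SDHB, STXBP2 and CORO1C were no longer called and no other named gene lost its call. With all 8 libraries in 1 fit, CLEC5A, ANXA6, CSF2RA and TGFB1 were no longer called. CSF2RA was also not called by DESeq2, CSF2RA, CYSTM1, IRAK4, PROS1 and S100B with library size alone or upper-quartile scaling, STXBP2 with the first, CASP10 with the second, and PROS1 and S100B with no count filter. The cause was not tested for any of these changes. Scaling by library size alone gave 857 higher and 706 lower with a median of -0.08 over all genes, and upper-quartile scaling 840 and 659. The depth, with 3 counts at 0.124 to 0.282 CPM, limits genes near the floor.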
